A study of Mus musculus with 18 samples.

Results

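The genes described here encode the receptors for glutamate, GABA and glycine in the mouse brain. They were chosen by gene symbol from the deposited expression table, and no measured value entered the choice. The symbols were Gria, Grik, Grin1 to Grin3, Grid or Grm followed by a number, Gabr, Gabbr1, Gabbr2, Glra and Glrb, with Grina left out. The rule found 53 of 37319 genes. Of these 52 are receptor genes, and 1, Grin1os, is an antisense transcript of the Grin1 locus that carries the same prefix. It is counted with the tested genes below unless a sentence sets it apart. The receptor genes divide evenly into 26 for glutamate and 26 for GABA or glycine. Of the glutamate receptor genes 16 encode AMPA, kainate or NMDA receptor subunits, 2 delta receptors and 8 metabotropic receptors. Of the others 24 encode GABA-A or glycine receptor subunits and 2 the GABA-B receptor.

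The 18 RNA-seq libraries were made from cortex on the operated side, in 6 groups of 3 libraries. The animals were male mice of the C57BL/6J strain, 8 to 10 weeks old, with a body weight of 24 to 26 g. All mice, sham animals included, had received an adeno-associated virus in the left lateral ventricle 4 weeks before surgery. Its synapsin promoter, active in neurons, drove a short hairpin RNA (shRNA) that was either a scramble control (the control arm, C) or directed against the ADP-ribosyltransferase gene Tiparp (the Tiparp arm, T). Surgery was sham or a transient occlusion of the middle cerebral artery (tMCAO), a stroke model in which blood flow to lateral cortex and striatum is stopped and restored. The groups were thus Sham_C and Sham_T, R24h_C and R24h_T taken 24 h after tMCAO, and R28d_C and R28d_T taken 28 d after it. Nothing in the labels says that each library of a group came from its own mouse, and every p-value therefore rests on a spread among libraries that may be technical.

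Glutamate opens AMPA, kainate and NMDA receptor channels, which pass cations and carry fast excitation, and GABA and glycine open GABA-A and glycine receptor channels, which pass chloride and carry fast inhibition in the adult cortex. Each channel is built from several subunits whose choice sets its kinetics, ion permeability and place on the neuron. Metabotropic glutamate and GABA-B receptors act more slowly through G proteins. Glutamate released during ischemia overactivates NMDA and AMPA receptors, the process known as excitotoxicity.

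Values are FPKM, fragment counts scaled by transcript length and by the mapped fragments of the library, so that levels of different genes can be set side by side per length. Libraries of the sham groups agreed more closely than those after tMCAO, with Pearson's r across genes within a group of 0.980 to 0.984 in sham and 0.944 to 0.980 after tMCAO. A rough relative depth of the libraries lay between 0.934 and 1.08 times that of Sham_C1. Tiparp itself was at 3.77 to 4.95 FPKM in sham, at 3.00 to 5.00 FPKM in R24h_T and 4.60 to 8.65 FPKM in R24h_C, and at 3.59 to 4.46 FPKM at 28 d. No difference between the arms in Tiparp passed an exact two-sided permutation test (n = 3 against 3, p = 0.6 in sham, 0.2 at 24 h and 1 at 28 d, where 0.1 is the smallest p that 3 against 3 libraries allow). Differences between the arms are therefore given as differences between groups of libraries. None of the 13 excitatory neuron, 14 inhibitory neuron or 14 pan-neuronal markers was listed at 0 in every library of a group. This does not show that each library held cortex alone. R24h_C3 stood apart, with 1682 FPKM of the choroid plexus product Ttr against 7.11 and 13.3 FPKM in R24h_C1 and R24h_C2. Ttr was also high in Sham_T1 (624 FPKM), Sham_T2 (501 FPKM), R28d_T2 (712 FPKM) and R28d_C2 (81.9 FPKM), and did not exceed 13.4 FPKM in the 13 other libraries. The excitatory neuron markers of R24h_C3 had a median of -1.27 from the sham mean on the log2(FPKM + 1) scale. Its 12 striatal markers summed to 450 FPKM, against 155 to 376 FPKM in the sham libraries and 98.6 to 154 FPKM in the 5 other 24 h libraries. R24h_T3 lay close to sham in several receptor genes and their partners, as the values below show. Results are given with and without these libraries where they change.

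Promoter sequence is shown for genes that were lower 24 h after tMCAO, because their shared direction invites a look at their start sites. Of the 52 receptor genes 36 were matched to 43 start-site windows of the RefSeq annotation, build GRCm38.p6, and of the 6 lower genes Gria4, Grik5, Grin2c and Grm3 were matched. Each line gives the 250 bases before the annotated start, read 5′ to 3′ on the gene's strand, which is the minus strand in all 4. Capitals mark the GC box GGGCGG, the element bound by Sp1 family factors, searched on both strands. The windows lie at chr9:4796235-4796484 (Gria4), chr7:25072370-25072619 (Grik5), chr11:115267244-115267493 (Grin2c) and chr5:9725353-9725602 (Grm3).
Gria4: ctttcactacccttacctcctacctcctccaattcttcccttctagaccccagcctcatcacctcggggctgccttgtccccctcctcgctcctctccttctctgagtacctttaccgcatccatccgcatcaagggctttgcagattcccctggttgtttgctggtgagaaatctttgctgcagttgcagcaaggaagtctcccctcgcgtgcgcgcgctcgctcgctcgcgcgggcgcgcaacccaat
Grik5: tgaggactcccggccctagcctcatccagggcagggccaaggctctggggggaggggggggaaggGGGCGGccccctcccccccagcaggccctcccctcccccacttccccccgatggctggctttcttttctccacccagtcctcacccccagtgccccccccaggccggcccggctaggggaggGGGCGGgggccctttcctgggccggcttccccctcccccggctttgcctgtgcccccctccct
Grin2c: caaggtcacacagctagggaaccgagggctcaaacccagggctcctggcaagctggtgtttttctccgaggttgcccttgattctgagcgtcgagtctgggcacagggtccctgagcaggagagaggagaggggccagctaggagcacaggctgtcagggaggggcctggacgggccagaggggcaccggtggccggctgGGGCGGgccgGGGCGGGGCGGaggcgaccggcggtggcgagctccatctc
Grm3: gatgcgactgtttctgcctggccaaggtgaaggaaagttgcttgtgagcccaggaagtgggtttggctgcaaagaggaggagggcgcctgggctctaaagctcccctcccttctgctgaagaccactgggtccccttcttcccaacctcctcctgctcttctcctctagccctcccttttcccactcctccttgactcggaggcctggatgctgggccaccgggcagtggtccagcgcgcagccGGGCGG

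The GC box was matched 0 times in the Gria4 window, 2 times in Grik5, 3 times in Grin2c, where the last 2 matches share 1 base, and 1 time in Grm3. It was present in 21 of the 43 receptor windows (48.8%) and in 32.7% of all 32851 windows of that length. The receptor windows held a median of 8 CpG dinucleotides against 6 in all windows, and Gria4 and Grin2c, with 16 and 15, were rich in them. A TATA box (TATAAA) was found in 11.6% of receptor windows and 12.4% of all, the hypoxia response element core ACGTG in 16.3% and 16.6%, the core of the cyclic AMP response element TGACG in 6.98% and 17.8%, and the AP-1 site TGANTCA in 4.65% and 6.75%. All motifs were searched on both strands, and overlaps between them were not removed. None of these 4 other motifs was matched in the 4 windows printed. A match is a description of the letters and not of a bound site.

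In sham cortex the receptor genes spanned a wide range of levels. Among AMPA receptor subunits, which carry most fast excitation, Gria1 was at 39.7 to 58.2 FPKM in the 6 sham libraries, Gria2 at 28.0 to 33.6, Gria3 at 19.7 to 22.7 and Gria4 at 12.2 to 16.3. Their ranges did not overlap, so that the order Gria1, Gria2, Gria3, Gria4 held in every sham library. Gria1 made up 44.5% ± 1.29 of summed AMPA subunit FPKM in Sham_C and 41.0% ± 2.06 in Sham_T (SD, n = 3 each). Of the NMDA receptor genes the obligatory subunit Grin1 was highest at 32.6 to 60.4 FPKM, with Sham_C3 above the other 5 libraries. The juvenile subunit Grin2b, at 10.3 to 14.0 FPKM, exceeded the adult subunit Grin2a, at 6.57 to 8.47 FPKM, in all of them, with a ratio between 1.55 and 2.01. Kainate receptor RNA was mostly Grik5, a subunit that forms channels only with other kainate subunits, at 37.7 to 46.6 FPKM and 67.1% ± 0.502 of the summed kainate subunits in Sham_C.

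Among inhibitory receptors, the GABA-A alpha subunits set the benzodiazepine response of the channel. Of these Gabra3 was at 29.5 to 32.0 FPKM in sham. Gabrd, which encodes the delta subunit of extrasynaptic GABA-A receptors that carry tonic inhibition, was at 15.3 to 18.9 FPKM. The GABA-B receptor genes Gabbr1 (75.6 to 89.0 FPKM) and Gabbr2 (45.8 to 56.0 FPKM) had the highest levels of the inhibitory genes. Glrb, the beta subunit that anchors glycine receptors, was at 18.4 to 28.4 FPKM, whereas the adult spinal cord alpha subunit Glra1 did not exceed 0.379 FPKM in any library. The metabotropic receptors were led by Grm3 (12.6 to 22.3 FPKM) and Grm5 (8.32 to 13.0 FPKM), and the delta receptor Grid1 was at 7.69 to 9.08 FPKM.

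Low genes were not tested. A gene was tested where 3 or more libraries of a comparison reached 1 FPKM, and 42 of the 53 genes met this for 24 h against sham over both arms. The 11 others include Gabra6, Gabre, Gabrp, Gabrq, Gabrr1, Gabrr3, Glra1, Glra4, Grin3b and Grm6. Most are known from cerebellum, retina, spinal cord or peripheral tissue. The highest value of Gabrq was 1.24 FPKM, in R24h_C3. Gabrp was listed at 0 in every library but R24h_C3, at 0.0182 FPKM.

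The comparison of 24 h with sham asks how receptor RNA stood early after the occlusion, and the fit over both arms, with arm as a term, gives it 6 libraries a side. Of 42 tested genes 6 fell, Gabrd, Gria4, Grm3, Grik5, Grin2c and Grm4, and 0 rose, at a limma adjusted p under 0.05 over all 14589 genes tested. Over all genes 5.38% fell and 19.3% rose. The receptor genes had a median log2 difference of -0.13 against 0.097 for all genes, and 35 of 42 were negative. With libraries scaled to equal median ratios, the median of all genes went from 0.097 to -0.004 and the calls over all genes from 2812 higher and 785 lower to 1740 higher and 1389 lower. With that scaling 11 of the tested genes of the rule were lower, Grin1os among them, and 0 higher. Of all genes 9.56% were lower and 12% higher in that fit. The striatal neuron markers were lower alongside, below every sham library in all 24 h libraries but R24h_C3, with a median log2 difference of -0.78 and 1 of 11 tested falling, and their part in the receptor values was not tested. In whole cortex, fewer cells of a type and less RNA per cell cannot be told apart.

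Gabrd had the smallest p of the 6 genes that fell. Its values were 16.1, 15.6 and 15.3 FPKM in Sham_C and 15.7, 18.9 and 18.1 FPKM in Sham_T. At 24 h they were 7.34, 10.6 and 9.13 FPKM in R24h_C and 11.5, 10.1 and 13.7 FPKM in R24h_T. Every 24 h library thus lay below every sham library, and no other receptor gene had groups that did not overlap, which 1.93% of all genes showed downward and 8.19% upward. The mean at 24 h was 62.6% of the sham mean, with a log2(FPKM + 1) difference of -0.64 (SE 0.0996, 95% interval -0.86 to -0.43, limma adjusted p = 0.00159). It passed in all 20 alternative analyses, with log2 differences of -0.76 to -0.58 and limma adjusted p of 0.000296 to 0.0183, among them the fits without R24h_C3 and without R24h_T3. The difference was 0.75 in size in the control arm and 0.54 in the Tiparp arm, both downward, and the test of the difference between the arms did not pass (0.20, 95% interval -0.23 to 0.63, limma adjusted p = 0.682).

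**Figure D1:**
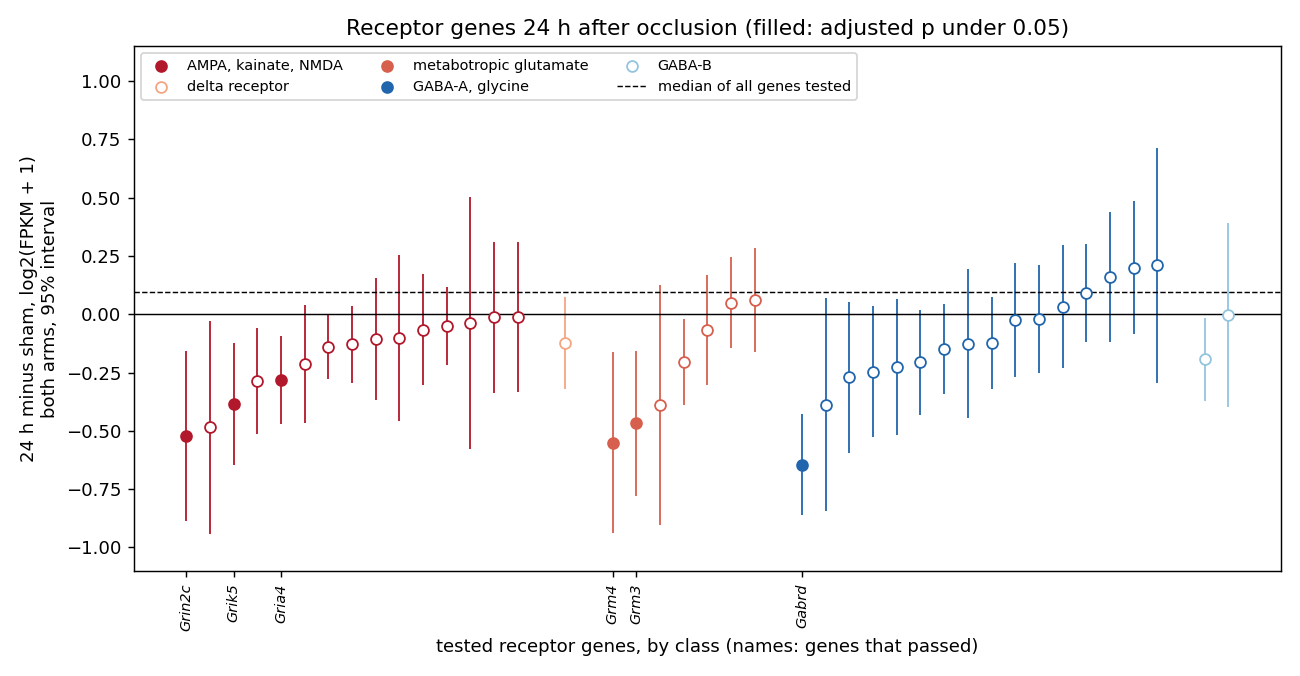
Log2(FPKM + 1) difference of 24 h minus sham over both arms (y axis) for the 41 tested receptor genes (x axis, by class and then by value, with the 6 genes that passed named), with 95% intervals, filled where the limma adjusted p was under 0.05 and with the median of all genes as a dashed line. All 15 AMPA, kainate and NMDA genes lie below 0, the 6 filled points are all negative, and Gabrd is lowest at -0.64.

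Of 4 AMPA receptor genes all were negative at 24 h and 1 fell. Gria4, a subunit of interneurons and thalamocortical cells that gives fast kinetics, was at 13.0, 13.0 and 12.2 FPKM in Sham_C and at 15.1, 15.1 and 16.3 FPKM in Sham_T. The 24 h values were 10.8, 11.6 and 7.97 FPKM in R24h_C and 12.0, 13.0 and 14.1 FPKM in R24h_T. Within each arm every 24 h library was below every sham library, while across arms R24h_T overlapped Sham_C, and the sham arms themselves did not overlap. The log2 difference was -0.28 (SE 0.0863, limma adjusted p = 0.0335). With 1 library left out it passed in 4 of 12 fits, those without R24h_C2, R24h_C3, R24h_T3 or Sham_T2. Gria3 was at 7.69 and 10.1 FPKM in R24h_C1 and R24h_C3 and at 15.2 to 23.0 FPKM in the 16 others, with a log2 difference of -0.48 (limma adjusted p = 0.108). Gria1 and Gria2, the most abundant subunits, had log2 differences of -0.07 and -0.21 (limma adjusted p = 0.679 and 0.194). The share of Gria1 among AMPA subunits was 51.4% ± 4.13 in R24h_C and 42.9% ± 4.44 in R24h_T (SD, n = 3), a spread wider than in sham.

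Of 5 kainate receptor genes all were negative and 1 fell. Grik5 was at 44.1, 45.8 and 46.6 FPKM in Sham_C and at 37.7, 40.9 and 42.0 FPKM in Sham_T. The 24 h values were 27.6, 39.0 and 30.0 FPKM in R24h_C and 37.6, 24.9 and 38.8 FPKM in R24h_T. The control arm groups were apart, whereas in the Tiparp arm R24h_T3 lay inside the sham range and R24h_T1 just below it. The 24 h mean was 77.0% of sham (log2 difference -0.38, SE 0.120, limma adjusted p = 0.036), and the call held in 4 of 12 fits that left out 1 library, those without R24h_C2, R24h_T1, R24h_T3 or Sham_T1. Grik2, at 3.20 to 4.80 FPKM at 24 h and 4.33 to 6.40 FPKM in sham, had a log2 difference of -0.29 (limma adjusted p = 0.0645).

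Of 6 NMDA receptor genes tested all were negative and 1 fell. Grin2c, a subunit known from cerebellar granule cells and, in cortex, from astrocytes, was at 10.5, 10.0 and 11.1 FPKM in Sham_C and at 9.27, 9.45 and 10.1 FPKM in Sham_T. The 24 h values were 7.12, 5.64 and 10.1 FPKM in R24h_C and 3.73, 6.22 and 9.26 FPKM in R24h_T. In each arm 1 library, R24h_C3 and R24h_T3, stayed near sham while the other 2 were lower. The log2 difference was -0.52 (SE 0.167, limma adjusted p = 0.0389), and with 1 library left out it passed without R24h_C3 (-0.62, limma adjusted p = 0.0208) and without R24h_T3 (-0.64, limma adjusted p = 0.00735) only. Grin1, which every NMDA receptor contains, spread widely at 24 h, at 30.8, 42.5 and 20.4 FPKM in R24h_C and 71.9, 43.6 and 38.5 FPKM in R24h_T, with a log2 difference of -0.04 (95% interval -0.58 to 0.50, limma adjusted p = 0.925). Grin2a and Grin2b had log2 differences of -0.01 each. The ratio of Grin2b to Grin2a was 1.49 to 1.86 at 24 h, inside its sham range but for R24h_C1 at the low end.

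Grin1os was at 5.74 to 8.53 FPKM in sham and 4.10 to 7.68 FPKM at 24 h (log2 difference -0.36, limma adjusted p = 0.0749). The libraries kept strand, but the sources used here do not say that the counting used it. Reads of Grin1 and Grin1os, which overlap in 14 pairs of exons in the annotation, can therefore not be told apart. Of the 53 genes 22 overlap another gene model, among them Gabra4 and Gabrb1, which overlap each other on opposite strands. Of the genes that fell, Gria4 and Grin2c each overlap only a microRNA gene model, and Gabrd, Grik5, Grm3 and Grm4 overlap none.

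Of 7 metabotropic glutamate receptor genes tested 2 fell and 5 were negative. Of these Grm8 met the filter only through 24 h libraries, since no sham library reached 1 FPKM, and says nothing about direction. Grm3, a group II receptor of astrocytes and neurons that lowers cyclic AMP, was at 13.4, 13.9 and 12.6 FPKM in Sham_C and 18.9, 22.3 and 19.3 FPKM in Sham_T. The 24 h values were 10.6, 11.6 and 11.2 FPKM in R24h_C and 8.70, 11.2 and 17.6 FPKM in R24h_T. Each arm's 24 h libraries lay below its own sham libraries, and the sham arms did not overlap. The log2 difference was -0.47 (SE 0.144, limma adjusted p = 0.0339), and 5 of 12 fits with 1 library left out kept the call, those without R24h_C2, R24h_C3, R24h_T1, R24h_T3 or Sham_C3.

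Grm4, a presynaptic group III receptor, was at 4.06, 4.42 and 4.49 FPKM in Sham_C and at 4.39, 4.42 and 6.74 FPKM in Sham_T. The 24 h values were 2.38, 2.32 and 5.18 FPKM in R24h_C and 1.74, 3.26 and 3.26 FPKM in R24h_T. Only R24h_C3 reached the sham range. Its log2 difference was -0.55 (SE 0.179, limma adjusted p = 0.0412), and with 1 library left out it passed without R24h_C3 (-0.70, limma adjusted p = 0.00636) or R24h_T3 (limma adjusted p = 0.0384) only. Grm2, the other group II receptor, was at 1.98 FPKM in R24h_C3 and 5.91 to 10.2 FPKM in the other 24 h libraries, against 7.18 to 9.14 FPKM in sham (log2 difference -0.39, limma adjusted p = 0.243). The group I receptor Grm5, which releases calcium from stores, had a log2 difference of -0.07 (limma adjusted p = 0.677).

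**Figure D2:**
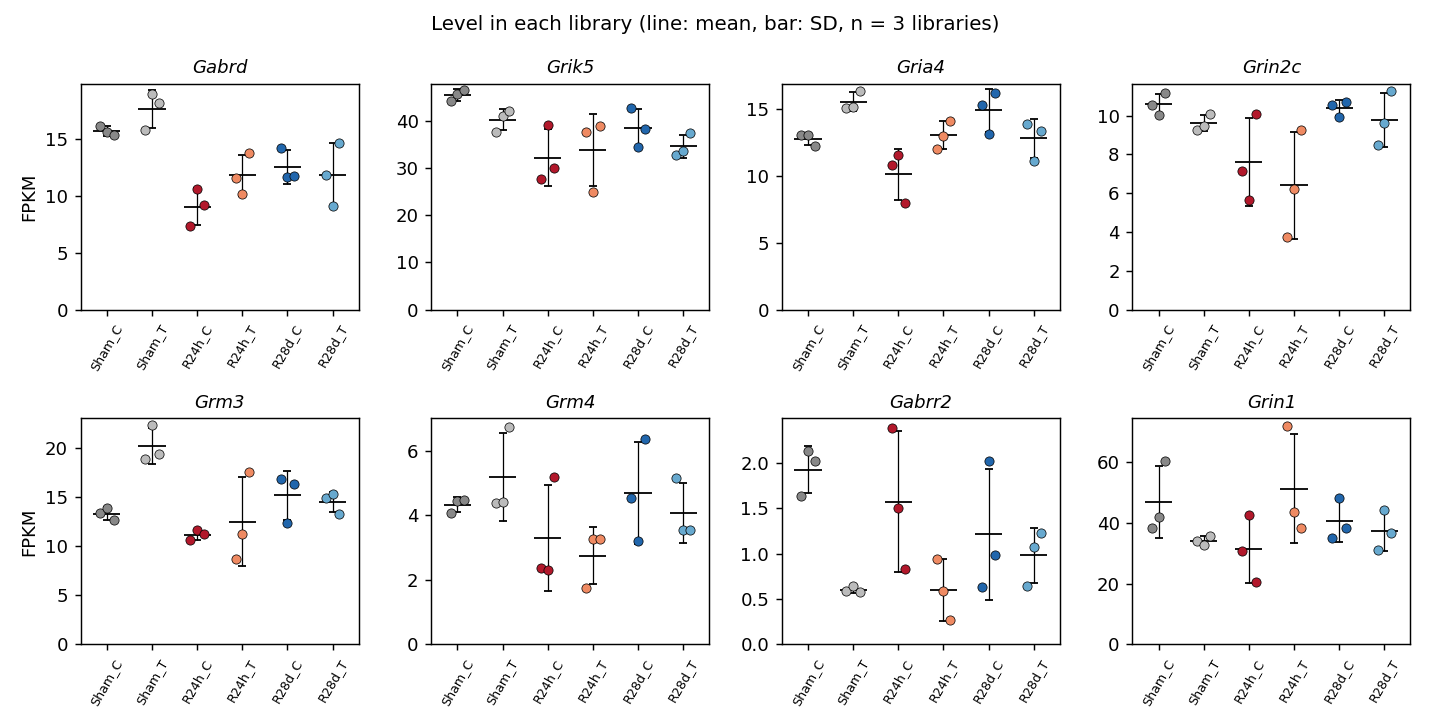
FPKM (y axis, from 0) of 8 receptor genes in each library of the 6 groups (x axis), with the mean as a line and the SD as a bar (n = 3). Gabrd shows every 24 h library (7.34 to 13.7 FPKM) below every sham library (15.3 to 18.9 FPKM), while in Grin2c and Grm4 at least 1 library at 24 h stayed at the sham level and Grin1 spread widely in R24h_T.

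Of 16 GABA-A and glycine receptor genes tested at 24 h Gabrd alone fell and 11 were negative. Glra3 met the filter only through 24 h libraries, and without it 11 of 15 were negative. The alpha subunit genes Gabra2, Gabra3, Gabra4 and Gabra5 had log2 differences of -0.27, -0.25, -0.15 and -0.39, and the lowest limma adjusted p among them was 0.175. The beta subunits went both ways, with Gabrb1 at -0.21 and Gabrb2 at 0.20 (limma adjusted p = 0.157 and 0.277). Gabrb2 was at 9.89, 12.6 and 6.60 FPKM in R24h_C and 13.7, 14.3 and 13.5 FPKM in R24h_T, against 8.99 to 11.1 FPKM in sham. Without R24h_C3, the lowest library, Gabrb2 passed upward at 0.32, the only receptor gene to pass upward in any of these 24 h fits over both arms. Glrb had a log2 difference of -0.03 (95% interval -0.27 to 0.22). The GABA-B genes Gabbr1 and Gabbr2 had log2 differences of -0.19 and 0.00 (limma adjusted p = 0.0991 and 0.99), with R24h_C3 low in Gabbr2 at 25.5 FPKM against 44.2 to 61.7 FPKM in the 17 others.

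Excitatory and inhibitory channels were set side by side by their medians, as a description without a test. Over both arms at 24 h the 15 AMPA, kainate and NMDA genes had a median log2 difference of -0.13 and the 16 GABA-A and glycine genes of -0.12, a gap of 0.004 where the SD between libraries of a group was 0.0702. Without Glra3 the inhibitory median was -0.13. By count 3 of 15 excitatory genes and 1 of 16 inhibitory genes fell, beside 5.38% of all genes, and the difference between these counts was not tested. With no filter, and in 5 of the 12 fits with 1 library left out, Gabrd was the only receptor gene of any class that passed. Counting the metabotropic, delta and GABA-B receptors as well, 5 of 23 glutamate receptor genes fell and 1 of 18 GABA and glycine receptor genes.

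The gap was also taken in each library. The inhibitory median minus the excitatory median was 0.19, 0.14 and 0.19 in R24h_C1, R24h_C2 and R24h_C3, each above the sham range of -0.09 to 0.06. It was -0.12, 0.01 and 0.11 in R24h_T1, R24h_T2 and R24h_T3, which spanned the sham range on both sides. Each library was measured from the sham mean of its arm, which the sham libraries enter and the 24 h libraries do not. The sham range is therefore narrower than a like comparison would give. The sham means also differed between the arms by class. Sham_T against Sham_C had a median of 0.15 for inhibitory genes (0.16 without Gabrr2) and -0.07 for excitatory genes. With R24h_T set directly against R24h_C, the medians were 0.27 and 0.25. The gaps of the arms therefore rest on unlike sham baselines and cannot be set side by side as responses. In the control arm alone the excitatory median was -0.29 and the inhibitory -0.12. The excitatory neuron markers summed to 398 to 1181 FPKM in R24h_C, 933 to 1535 FPKM in R24h_T and 1156 to 1378 FPKM in sham. The inhibitory neuron markers summed to 601 to 810 FPKM in R24h_C, 520 to 625 FPKM in R24h_T and 619 to 668 FPKM in sham. Over both arms 1 of 13 excitatory and 0 of 14 inhibitory neuron markers fell. Their part in the receptor values was not tested, nor was the gap between the arms.

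**Figure D3:**
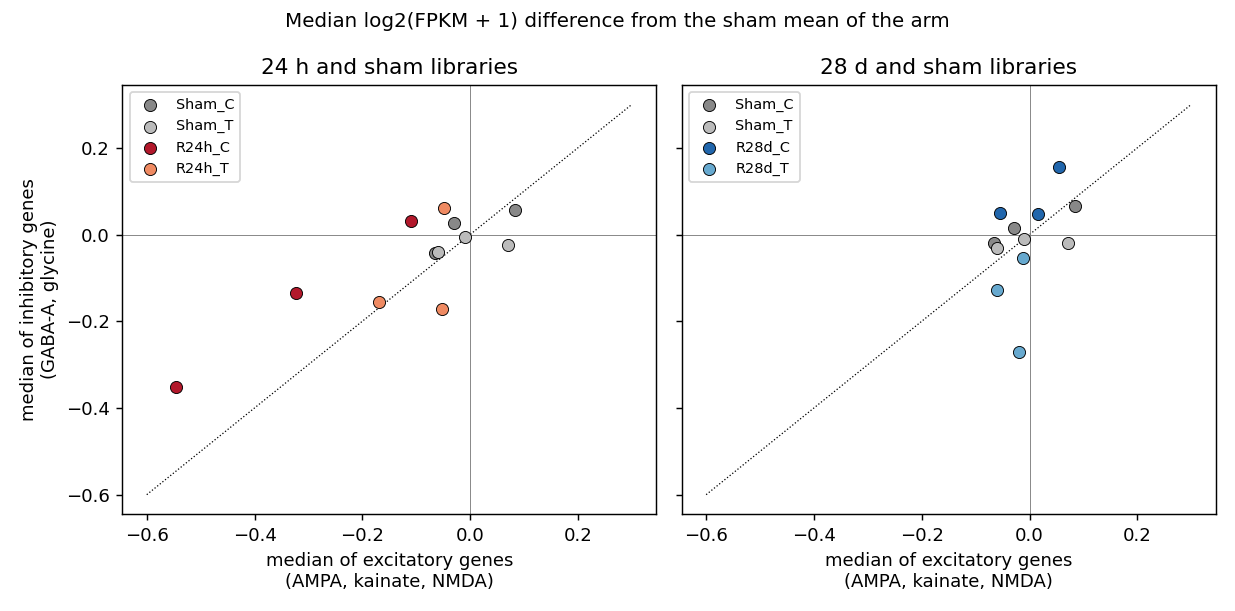
Median log2(FPKM + 1) difference of each library from its arm's sham mean, over excitatory (x axis) and inhibitory (y axis) channel genes, with sham and 24 h libraries on the left and sham and 28 d libraries on the right. The R24h_C libraries lie above the dotted line of equality by 0.14 to 0.19, the R24h_T libraries on both sides of it, and the 3 R28d_T libraries below it. The sham means of the arms differed by class, so libraries of different arms have no common baseline here.

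Within the control arm 2 of 40 tested receptor genes fell at 24 h, Gabrd (-0.75, SE 0.132, limma adjusted p = 0.014) and Grik5 (-0.50, SE 0.138, limma adjusted p = 0.0423), and 0 rose. Over all genes 4.24% fell and 19.8% rose. Groups did not overlap in 11 of the 40 tested genes, Grin1os among them, all lower at 24 h. Of all genes tested 11.8% were lower and 36.1% higher in this way. Besides the called pair the 11 were Grin1os, Grm3, Grm2, Grik4, Gria4, Grin2d, Gabbr1, Grin3a and Grm7. The count of calls depended on single libraries: it was 0 without R24h_C1, Sham_C1, Sham_C2 or Sham_C3, 11 without R24h_C2 and 4 without R24h_C3. Over all genes the last 2 fits called 4854 and 2012. Array weights, which give less weight to libraries far from their group, called 21 of the 40 genes and 7561 of all 13880 tested. The estimate of those weights did not converge here.

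In the Tiparp arm 0 of 39 tested receptor genes passed limma at 24 h, and 6 had an unadjusted p under 0.05. Of all genes 0.222% passed in that arm, and 14.3% had an unadjusted p under 0.05. Gabrd was lowest in p (-0.54, limma adjusted p = 0.185). Without R24h_T3, the library close to sham, Gabrd (-0.65), Grm3 (-0.96) and Gabra2 (-0.66) fell. Here 7 of the tested receptor genes were lower without overlap (8.28% of all genes) and 5 higher (13.9%), the latter including Gabrb2, Gabbr2, Grin1 and Grin2a. Grin1 was at 34.1, 32.6 and 35.5 FPKM in Sham_T and 38.5 to 71.9 FPKM in R24h_T (log2 difference 0.52, limma adjusted p = 0.345), so the groups were apart without passing. The R24h_T values overlapped those of Sham_C, at 38.2 to 60.4 FPKM. The test of the difference between the arms in the 24 h response called 0 of 42 receptor genes and 0% of all genes. An unadjusted p under 0.05 was seen in 3 receptor genes and 10.9% of all genes. The 3 were Grin1 (1.13), Grm2 (0.96) and Gabbr2 (0.69), each with the higher response in the Tiparp arm (lowest limma adjusted p = 0.415). All 3 also started lower in that arm, without overlap of the sham groups. Grm2 was at 7.18 to 8.10 FPKM in Sham_T and 8.50 to 9.14 FPKM in Sham_C. Gabbr2 was at 45.8 to 50.2 FPKM and 51.4 to 56.0 FPKM. R24h_C3 was the lowest library in each of the 3 genes.

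The partners of the receptors were read from lists chosen for their function, and the counts of these lists stand beside 5.38% of all genes lower and 19.3% higher. Of 16 auxiliary subunits of glutamate receptors, which traffic the channels and set their gating, 3 fell at 24 h over both arms and 1 rose. Cnih2, a cornichon that exports AMPA receptors from the endoplasmic reticulum, fell from 80.1 to 94.1 FPKM in sham to 46.6 to 65.9 FPKM in 5 of the 24 h libraries, with R24h_T3 at 87.3 FPKM (log2 difference -0.57, limma adjusted p = 0.0121). Gsg1l, another AMPA receptor subunit of this kind, fell by 0.48 (limma adjusted p = 0.0345), and the transmembrane regulator Cacng5 rose by 0.66 (limma adjusted p = 0.0302). Of 18 excitatory postsynaptic scaffold genes 7 fell and 1 rose, led in p by Shank3 (-0.68), Shank1 (-0.72) and Dlgap3 (-0.54), and R24h_T3 held Shank3 at 28.2 FPKM, inside the sham range. Of 15 inhibitory scaffolds and GABA receptor partners 2 fell and 1 rose. Shisa7, a GABA-A receptor auxiliary protein, fell by 0.56 (limma adjusted p = 0.0177), and Gabarap, which binds gamma subunits and acts in autophagy, rose by 0.37 (limma adjusted p = 0.0278).

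Transmitter uptake genes moved as well. Slc1a2, the main astrocyte glutamate transporter, was at 200 to 224 FPKM in sham and at 107 to 145 FPKM in 5 of the 24 h libraries, with R24h_T3 at 223 FPKM, and fell by 0.55 (limma adjusted p = 0.0195). Slc38a2, a glutamine carrier, rose by 0.83 (limma adjusted p = 0.00408), and these were the only passing genes of 9 for glutamate supply. Of 10 genes for GABA and glycine supply 2 fell and 2 rose. The GABA transporter Slc6a11 fell by 0.57 (limma adjusted p = 0.0204). Slc6a13 and Slc6a12, transporters of meninges and vessels, rose by 0.98 and 0.85 (limma adjusted p = 0.00177 and 0.00107). Slc6a12 met the filter only through 24 h libraries, since no sham library exceeded 0.213 FPKM. Its call, counted among the 2 that rose, therefore supports nothing. Of 3 chloride transporters 0 passed limma and 0 had an unadjusted p under 0.05. Among markers 3 of 13 astrocyte genes rose and 2 fell, with list sums of 716 to 1057 FPKM at 24 h and 640 to 799 FPKM in sham, and 7 of 9 endothelial markers rose. The 10 markers of monocytes, macrophages and neutrophils summed to 5.89 to 8.42 FPKM in sham and 25.5 to 313 FPKM at 24 h, and microglial markers summed to 103 to 122 FPKM and 130 to 220 FPKM. Their part in the values of Grm3, Grin2c and the transporters was not tested.

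**Figure D4:**
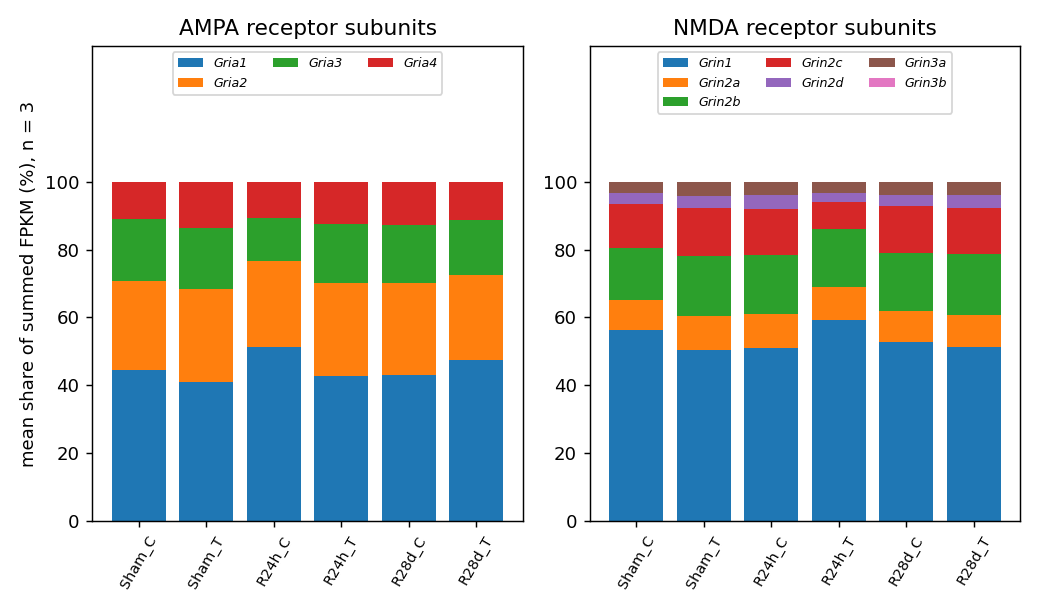
Mean share of summed FPKM (y axis, percent, n = 3 libraries per group) of AMPA and NMDA receptor subunits in the 6 groups (x axis). The order of AMPA subunits is alike in all groups, with Gria1 at 41.0% to 51.4%.

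The comparison of 28 d with sham asks what remained late after the occlusion. Over both arms limma called 0 of 41 receptor genes, 4 had an unadjusted p under 0.05, and of all genes 0.00702% passed and 17.3% had such a p. The median of the receptor genes was -0.02 against 0.04 for all genes. Gabrd was at 14.2, 11.6 and 11.7 FPKM in R28d_C and at 11.8, 9.05 and 14.6 FPKM in R28d_T. These values all lay below the sham range of 15.3 to 18.9 FPKM, and Gabrd was the only receptor gene whose groups did not overlap, as in 0.274% of all genes downward and 1.19% upward. The log2 difference was -0.43 (95% interval -0.65 to -0.21, limma adjusted p = 0.129), and the mean stood at 73.2% of sham. Grik5 was at 42.7, 34.5 and 38.3 FPKM in R28d_C and 32.7, 33.5 and 37.4 FPKM in R28d_T, with R28d_C1 and R28d_C3 inside the sham range (log2 difference -0.23, limma adjusted p = 0.129). Both passed without R28d_C1 and without R28d_T3, and Gabrb1 also passed, upward at 0.29, without R28d_T3. At 28 d the markers of monocytes, macrophages and neutrophils summed to 7.75 to 625 FPKM, those of microglia to 127 to 441 FPKM, those of astrocytes to 710 to 1663 FPKM and the striatal markers to 55.3 to 217 FPKM, and their part in these values was not tested. Because 28 d and 24 h share the sham libraries, the lower Gabrd at both times is not independent evidence.

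The other genes that fell at 24 h did not pass at 28 d. Gria4 was at 11.1 to 16.2 FPKM, Grin2c at 8.47 to 11.3, Grm3 at 12.3 to 16.8 and Grm4 at 3.21 to 6.36, each overlapping sham. Set against 24 h over both arms, 0 of 42 receptor genes passed limma, 7 had an unadjusted p under 0.05, and of all genes 2.98% passed and 25.7% had such a p. The median was 0.15 against -0.06 for all genes. Gabrb1 was nearest to passing, at 8.97 to 12.7 FPKM at 28 d and 6.59 to 9.94 FPKM at 24 h (log2 difference 0.42, limma adjusted p = 0.0591), followed by Gabra5 (0.67, limma adjusted p = 0.0971) and Grin2c (0.52, limma adjusted p = 0.0997). Without R24h_T3 the genes Gabrb1, Grin2c, Grm3, Grik2 and Gabra2 passed, all higher at 28 d.

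Within the arms at 28 d, limma called 0 of 40 receptor genes in the control arm and 0 of 39 in the Tiparp arm, with 3 and 6 at an unadjusted p under 0.05. Of all genes 0.0522% and 0.0148% passed, and 11.5% and 10.5% had such an unadjusted p. In the Tiparp arm 8 receptor genes were lower without overlap and 0 higher (5.43% and 10.9% of all genes), among them Grm3, Gabra4, Gabrd, Gria4, Grik5, Gabrg1 and Gabbr1. The inhibitory minus the excitatory median was -0.04, -0.25 and -0.07 in R28d_T and 0.10, 0.10 and 0.03 in R28d_C, and over both arms it was -0.002. Each arm was again measured from its own sham mean, and those means differed by class as given above. With R28d_T set directly against R28d_C, the inhibitory median was -0.07 and the excitatory median -0.09. The difference between the arms in the 28 d response passed for 0 of 41 receptor genes against 0.00702% of all genes, with 6 (and 4.84% of all genes) at an unadjusted p under 0.05, among them Grm3 (-0.61, limma adjusted p = 0.929).

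Between the arms themselves, the sham groups show how the libraries differed without ischemia. Of 40 receptor genes 1 passed limma and 10 had an unadjusted p under 0.05, against 0.21% and 12.8% of all genes. It was Gabrr2, a rho subunit, at 1.63, 2.13 and 2.02 FPKM in Sham_C and 0.591, 0.646 and 0.575 FPKM in Sham_T (log2 difference -0.86, limma adjusted p = 0.0209). Gabrr2 met the filter only through Sham_C, where it is high, so that a gene tested in this way had to differ and the call supports nothing. Its levels are low, and later groups held both ranges, such as 2.39, 1.50 and 0.833 FPKM in R24h_C. The call was lost without Sham_T1 or Sham_T2, with a limma adjusted p of 0.0934 and 0.0581, with no filter, with all 18 libraries in 1 fit and without Sham_T1 and Sham_T2, which are high in Ttr (limma adjusted p = 0.150), and without a Sham_C library it no longer met the filter. Grm3 was next, higher in Sham_T in 3 of 3 libraries (0.56, limma adjusted p = 0.0669), followed by Gria4 (0.26, limma adjusted p = 0.182). Both genes therefore had a higher starting level in the Tiparp arm when 24 h and 28 d were compared with sham. Groups did not overlap in 12 of the tested receptor genes, 7 higher and 5 lower in Sham_T, where 10.6% and 8.85% of all genes did. The inhibitory channel genes among those higher included Gabra4, Gabra2 and Glra2. Those lower included Grin1, Grm2, Gabbr2 and Grik5, which thus had a lower starting level in the Tiparp arm.

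At 24 h limma called 0 of 41 receptor genes between the arms, 2 had an unadjusted p under 0.05, and of all genes 0% passed and 7.22% had such a p. The median of the receptor genes was 0.19 against -0.08 for all genes, and 7 of 41 were negative. Groups did not overlap in 5 tested receptor genes that were higher in R24h_T, Gabrb2, Grm2, Gria4 and Gabbr2 among them, as in 3.23% of all genes. They did not overlap in 1 tested gene that was lower, Grik1, as in 8.78%. For Grm2 and Gabbr2 the lowest library was R24h_C3, at 1.98 and 25.5 FPKM. At 28 d limma called 0 of 41 as well, with 1 at an unadjusted p under 0.05, against 0% and 2.52% of all genes, and a median of -0.09 against 0.02 for all genes.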

How the data were processed

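RNA-seq of 18 libraries gave the deposited FPKM values of 37319 genes, 1 column per library. Per the submitters' processing notes, the authors used HISAT, StringTie and edgeR with genome build mm9, and versions are not given in the sources used here. Per the labels' protocols, RNA was poly(A) selected and sequenced as stranded paired-end libraries. FPKM hold no read totals, so the number of fragments behind a value is unknown, and only relative depth could be estimated, between 0.934 and 1.08.

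The receptor genes, gene lists, tests and alternatives were chosen with earlier results of these data known. Tests were two-sided and used limma 3.58.1 in R 4.3.3, with a mean-variance trend and empirical Bayes moderation, on log2(FPKM + 1) of the groups compared. A gene entered where 3 or more of those libraries reached 1 FPKM. p was adjusted over all genes tested by Benjamini and Hochberg at 0.05, in 12 comparisons. Adding 1 understates the change of weakly expressed genes. Of 62 repeated symbols the entry with the highest mean was used.

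Values in every library are given for receptor genes that passed and for the highest gene of some classes. Of each partner list at most 3 passing genes are named, by smallest p, and Gabrb2, Grm2, Gabra5 and Kctd12 are among those given after their values were seen. Results were recomputed with 0.1 added in place of 1, without the filter, with scaling to median ratios, with a replicate block, with all 18 libraries in 1 fit, with array weights and with each library left out. Leaving out the 5 libraries with Ttr above 50 FPKM, or the libraries with the highest striatal markers, was chosen after seeing the data. The code was tested on simulated data. Some genes of these lists are counted but not reported here by name. Replicate numbers were not treated as pairs. Promoter windows came from RefSeq, build GRCm38.p6, matched by symbol and not converted from mm9, and overlaps of gene models from the GENCODE annotation of that build, which matched all 53 genes. Figures used Python 3.11.15 and matplotlib 3.10.9.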

Additional observations from a re-analysis of the deposited data

How the results depend on the processing

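Counts include Grin1os where it passed. Over both arms at 24 h the count of 6 genes became 1 with no filter, 11 with median-ratio scaling and 3 without the libraries high in Ttr, and ranged from 1 to 11 with 1 library left out. It was 1, Gabrd, without R24h_C1, R24h_T2, Sham_C1, Sham_C2 or Sham_T3, and 2 without Sham_C3, Sham_T1 or Sham_T2. In the control arm at 24 h the count of 2 became 1 with no filter, 6 with scaling, 4 with all 18 libraries in 1 fit, 21 with array weights, 4 without the libraries high in Ttr, 4 without those high in striatal markers, and 0 to 11 with 1 library left out. Gabrd itself did not pass there without R24h_C1 or any 1 of the Sham_C libraries. Calls over all genes changed as well. Over both arms at 24 h they were 2747 with no filter, 3129 with scaling and 1427 without the libraries high in Ttr. Without R24h_T3 they were 5193. In the control arm at 24 h they were 1769 with no filter, 2662 with scaling and 3883 with all 18 libraries in 1 fit. Array weights gave 7561 there, and leaving out R24h_C2 gave 4854. For the sham arms the count of 1 became 0 with no filter, 0 with all 18 libraries in 1 fit, 0 without the libraries high in Ttr, 2 with array weights and 0 to 1 with 1 library left out. Counts of 0 became 12 with array weights for the Tiparp arm at 28 d, 2 for both arms at 28 d and 1 for the difference of the 28 d responses. These fits called 2407, 799 and 21 of all genes. For 28 d against 24 h the count of 0 became 1 with scaling, 3 with all 18 libraries in 1 fit and 3 with array weights. Over all genes these fits called 626, 2541 and 2434. With 1 library left out, counts of 0 ranged from 0 to 3 for the Tiparp arm at 24 h and for both arms at 28 d, from 0 to 1 for the Tiparp arm at 28 d and from 0 to 5 for 28 d against 24 h. The gap between inhibitory and excitatory medians at 24 h moved from 0.004 to 0.106 with no filter and 0.110 without the libraries high in Ttr, and ranged from -0.023 to 0.108 with 1 library left out. At 28 d it ranged from -0.0664 to 0.0397. The causes were not tested. With replicate number as a block the count was 5 over both arms at 24 h, 1 in the control arm at 24 h and 0 for the sham arms. The numbers do not pair the samples, since deviations of same-numbered libraries correlated at -0.417 to 0.210 and 3 of 18 libraries correlated best with their own number. The array weights did not converge for the control arm at 24 h, the arms at 24 h and both differences of responses. No called result reversed, and counts for the control arm at 28 d, for the arms at 24 h and 28 d and for the difference of the 24 h responses were 0 in all alternatives. Depth is unknown from FPKM, so genes near 1 FPKM, such as Gabrr2, Glra3 and Grm8, are least certain.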

Other observations

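Kctd12, an auxiliary subunit of the GABA-B receptor, was listed at 0 in 10 of 18 libraries, namely Sham_C1, all 3 of R24h_C, R24h_T1, R24h_T2, all 3 of R28d_C and R28d_T2. In the 8 other libraries it was at 5.80 to 8.95 FPKM, with nothing between. An exact 0 in a table without counts can be a failed estimate, so no fold is given.

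Several receptor genes had 1 library far below the 17 others. R24h_C3 was that library for Grm2 (1.98 FPKM, next 5.91 FPKM), Gabra5 (6.23 FPKM, next 9.46 FPKM) and Grin1 (20.4 FPKM, next 30.8 FPKM). R24h_T1 was that library for Grin2c (3.73 FPKM, next 5.64 FPKM), Gabrg1 (1.06 FPKM, next 1.47 FPKM) and Gabra2 (2.36 FPKM, next 3.10 FPKM). It was also lowest, by less, in Grm3 (8.70 FPKM, next 10.6 FPKM) and Grik1 (1.63 FPKM, next 1.81 FPKM). R28d_T2 stood highest in Gria1, at 70.4 FPKM against 38.8 to 58.2 FPKM in the 17 others, and held Gabra5 at 29.8 FPKM.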
